A study of Homo sapiens with 6 samples.

Results

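CTCF loci that appeared after inflachromene treatment and in neither of the other conditions were examined in IMR90, primary human fetal lung fibroblasts of 1 isolate. Whole peaks of the 3 CTCF lists that overlapped by at least 1 bp on the 22 autosomes and chromosome X were merged into loci, and the ICM-only loci were those chosen by holding a peak of the ICM list and of no other CTCF list. They numbered 913 of 9720 CTCF loci (9.39%), and each of them was a single ICM peak. The lists come from CUT&Tag, in which an antibody directs a transposase to chromatin and the fragments released there are sequenced. Antibodies against CTCF and against the cohesin subunit SMC1 were each used on 1 library of control, ICM-treated and senescent cells, so 6 libraries were available. ICM (inflachromene) is a small molecule that binds HMGB proteins.

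The groups were not matched in passage. For CTCF the labels carry the p number 21 for the control, 16 for the ICM-treated cells, labelled with 6 days of treatment, and 34 for the senescent cells. For SMC1 the numbers were 16, 16 and 34 and the ICM label gives no days. The control labels do not say whether vehicle was given. The titles with p number 34 name no treatment and were read as the high-passage senescent samples of the series design. Passage and treatment therefore cannot be told apart between the CTCF control and ICM libraries, and all cells were fixed with paraformaldehyde before the assay. With 1 library per group there was no replicate, no difference between conditions was tested, and the 95% intervals given here (exact Clopper-Pearson) cover counting over loci only. The depth of each library is unknown. The study calibrated reads with bacterial DNA, but whether the signal of the lists is on a common scale is not known. The lowest total signal kept was 14246 in the control, 20161 in the ICM and 6267 in the senescent CTCF list. Absence from a list means that a locus was under that list's own threshold, not that CTCF was absent.

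CTCF is a zinc finger protein that binds a long GC-rich motif and halts the cohesin ring as it extrudes chromatin loops. Much of its binding lies between or within genes, and part of it lies at promoters, which in vertebrates are often CpG islands. SMC1 pairs with SMC3 in the core of the ring, so an SMC1 peak marks chromatin at which cohesin was detected.

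The 250 bases before the start are shown for 6 promoters with an ICM-only summit, because promoters made up most of the ICM-only loci and their letters differ. They were the 6 of highest total signal among protein-coding genes whose window started at the outermost 5′ end and covered no other protein-coding gene. Sequences are from RefSeq on GRCh38.p14 and run 5′ to 3′ in the direction of the gene. Capitals mark AGGGGGC or AGGTGGC, which are only 2 of several forms of the CTCF core, and the GC box GGGCGG, the letters bound by SP factors, on either strand. FOSL2, an AP-1 subunit, lies at chr2:28392608-28392857 (+), ZC3H7A, an RNA-binding zinc finger protein, at chr16:11797259-11797508 (-), and PTBP1, a splicing regulator, at chr19:797202-797451 (+). COQ7, an enzyme of coenzyme Q synthesis, lies at chr16:19067364-19067613 (+), SLC18B1, a polyamine transporter, at chr6:132798638-132798887 (-), and PPP1R37, a regulatory subunit of protein phosphatase 1, at chr19:45092929-45093178 (+).
FOSL2: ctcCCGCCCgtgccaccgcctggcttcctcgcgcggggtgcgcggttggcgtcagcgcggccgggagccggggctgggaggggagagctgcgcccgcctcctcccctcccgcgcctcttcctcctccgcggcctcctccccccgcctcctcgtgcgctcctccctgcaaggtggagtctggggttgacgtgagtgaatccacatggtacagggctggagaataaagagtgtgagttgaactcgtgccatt
ZC3H7A: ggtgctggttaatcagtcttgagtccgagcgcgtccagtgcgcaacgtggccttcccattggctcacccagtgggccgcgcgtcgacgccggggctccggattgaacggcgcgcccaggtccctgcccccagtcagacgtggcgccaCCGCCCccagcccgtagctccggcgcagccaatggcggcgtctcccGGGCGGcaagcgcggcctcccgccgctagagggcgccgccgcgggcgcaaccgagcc
PTBP1: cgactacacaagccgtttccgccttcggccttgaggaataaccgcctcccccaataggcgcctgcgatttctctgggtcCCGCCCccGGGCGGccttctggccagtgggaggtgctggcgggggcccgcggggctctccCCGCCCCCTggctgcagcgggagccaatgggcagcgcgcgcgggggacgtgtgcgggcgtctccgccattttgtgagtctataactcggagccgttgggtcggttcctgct
COQ7: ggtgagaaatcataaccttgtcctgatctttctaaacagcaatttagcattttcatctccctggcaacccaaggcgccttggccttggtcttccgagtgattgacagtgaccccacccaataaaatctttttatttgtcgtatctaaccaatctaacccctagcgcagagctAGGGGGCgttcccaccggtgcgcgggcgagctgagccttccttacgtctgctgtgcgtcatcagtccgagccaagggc
SLC18B1: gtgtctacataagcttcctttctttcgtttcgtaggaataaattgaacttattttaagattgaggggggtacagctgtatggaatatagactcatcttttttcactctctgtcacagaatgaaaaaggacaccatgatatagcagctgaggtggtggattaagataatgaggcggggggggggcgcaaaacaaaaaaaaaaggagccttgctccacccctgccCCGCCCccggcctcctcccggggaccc
PPP1R37: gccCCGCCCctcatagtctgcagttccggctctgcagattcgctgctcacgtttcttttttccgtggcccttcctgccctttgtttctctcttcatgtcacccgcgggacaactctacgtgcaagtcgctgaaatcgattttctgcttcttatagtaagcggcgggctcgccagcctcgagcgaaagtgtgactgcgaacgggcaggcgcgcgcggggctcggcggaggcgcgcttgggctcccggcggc

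Either of these forms of the core stood in the stretches of PTBP1 and COQ7. In PTBP1 it overlapped a GC box, and both were on the strand opposite to the one printed. Other forms of the core were not searched, so a stretch without these letters, such as that of ZC3H7A, is not shown to lack a CTCF core. A GC box stood in 5 of the 6, COQ7 being the exception. The GC share ran from 48% in SLC18B1 to 74% in ZC3H7A. The SMC1 lists also separated these promoters: FOSL2, PTBP1 and COQ7 had an SMC1 peak in all 3 lists, ZC3H7A in the control list only, PPP1R37 in the ICM list only and SLC18B1 in none.

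Most ICM-only loci were at promoters. The summit, the midpoint of the stretch of highest signal, fell no more than 1 kb from a gene's 5′ end at 500 of the 913 loci, 54.8% (51.5 to 58.0), against 29.1% of all CTCF loci. The share was 36.4% (34.9 to 37.9) among the 4026 loci in all 3 lists, 19.7% (17.7 to 21.9) among the 1428 loci of the ICM and senescent lists, and 10.4% (9.25 to 11.6) among the 2750 loci of the senescent list only. Loci of the control and ICM lists stood above the ICM-only loci, at 67.1% (61.8 to 72.0) of 343, so a high promoter share also marked loci that were absent from the senescent list alone. Length of the lists bore on this value: when each CTCF list was cut to 4673 peaks, the length of the control list, the promoter share was 44.2% by total signal and 32.0% by highest signal, and only 258 and 170 of the 913 loci were still ICM-only.

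**Figure D1:**
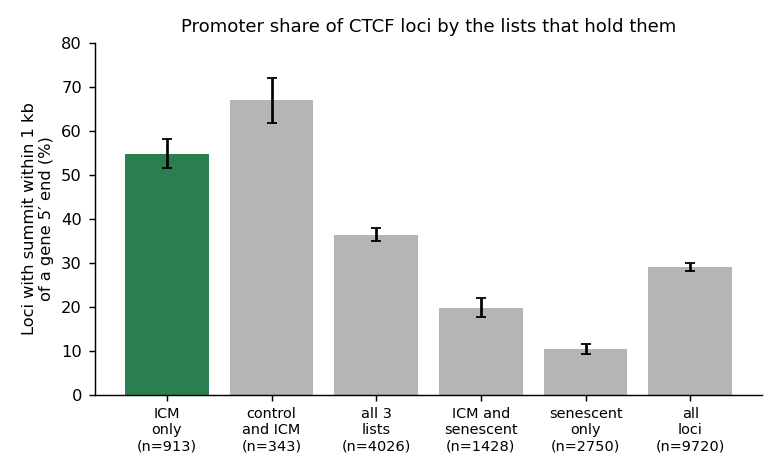
Share of CTCF loci with a summit within 1 kb of a gene 5′ end (percent, vertical axis) for ICM-only loci (green) and other classes of locus (grey), with bars for the exact 95% interval over loci. The ICM-only bar reaches 54.8%, above the 36.4% of loci in all 3 lists and below the 67.1% of loci in the control and ICM lists.

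Of the 500 promoter loci, 467 (93.4%) were at a protein-coding gene, 27 at a lncRNA gene and no coding one, and 6 at another kind of gene. Summits sat close to the start, with a median distance of 168 bp (quartiles 74.8 and 306), and lay upstream at 272 and downstream at 228. At 93 loci (18.6%, 15.3 to 22.3) coding genes started on both strands within 1 kb, compared with 165 of 1464 promoter loci (11.3%, 9.70 to 13.0) in all 3 lists. HSPD1 and HSPE1, the mitochondrial chaperonin and its partner, shared 1 such locus, as did HNRNPA2B1 and CBX3. In all, 707 genes had an ICM-only summit at their 5′ end, 567 of them protein-coding, which is 2.89% of the 19630 coding genes with a known 5′ end.

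The other 413 loci lay away from promoters. Of these, 250 (60.5%) were inside a protein-coding gene, 39 inside another gene only and 124 (30.0%) in no gene, and the median distance to a coding 5′ end was 22893 bp (quartiles 7721 and 62199). Some of them were at starts inside genes. SLC1A5, a glutamine transporter, had its summit 3726 bp from the outermost 5′ end (chr19:46783880-46788983). Counting inner starts of the RefSeq promoter table raised the promoter share to 59.7%. ICM-only loci took their largest share of ICM loci on chromosome 18, 15 of 53 (28.3%, 16.8 to 42.3), and on chromosome 4, 40 of 174 (22.99%, 17.0 to 29.96). Their smallest shares were on the gene-dense chromosomes 22, 18 of 193 (9.33%, 5.62 to 14.3), and 19, 46 of 492 (9.35%, 6.93 to 12.3).

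Promoter windows that held an ICM-only summit were GC-rich and CpG-rich. In the 271 windows of 300 bases, from 250 before to 50 after the start, the median GC share was 67.0% and the observed over expected CpG ratio 0.875, compared with 62.3% and 0.738 over all 22132 coding windows. The values were 67.3% and 0.847 in the 704 windows with a summit of a locus in all 3 lists, so base composition was close in both classes. The GC box was in 216 windows (79.7%, 74.4 to 84.3) against 56.3% of all coding windows and 76.8% (73.6 to 79.9) for loci in all 3 lists. The core letters AGGGGGC or AGGTGGC were in 85 windows (31.4%, 25.9 to 37.3) against 23.3% of all coding windows and 42.3% (38.6 to 46.1) for loci in all 3 lists. With both forms counted together the ICM-only windows thus lay between the other sets. The forms are also given apart. AGGGGGC was in 26.6% of ICM-only windows, against 17.5% of all coding windows and 33.5% for loci in all 3 lists. AGGTGGC was in 14 ICM-only windows, 5.17% (2.85 to 8.52). That interval contains the 7.18% of all coding windows and lies below the 11.5% for loci in all 3 lists. These letters are shorter than the motif that the study used as a filter, and no motif was scored under the peaks here.

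Because the ICM list chose the loci, their CTCF values are a description. The loci were weak members of that list. Total signal (coverage summed over the peak) ran from 20168 to 71192 with a median of 23483, compared with 43314 for the ICM peaks of loci in all 3 lists. The highest signal ran from 13 to 104 with a median of 40, compared with 86. As percentiles of the ICM list, the medians were 18.6 by total signal and 13.4 by highest signal, against 68.9 by both for loci in all 3 lists. In the lowest 25% of the ICM list lay 568 of the 913 (62.2%) by total and 694 (76.0%) by highest signal. Of the lowest 10% of ICM peaks by highest signal, 53.5% were ICM-only, and of the 673 peaks in the highest 10% by total signal 0 were.

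**Figure D2:**
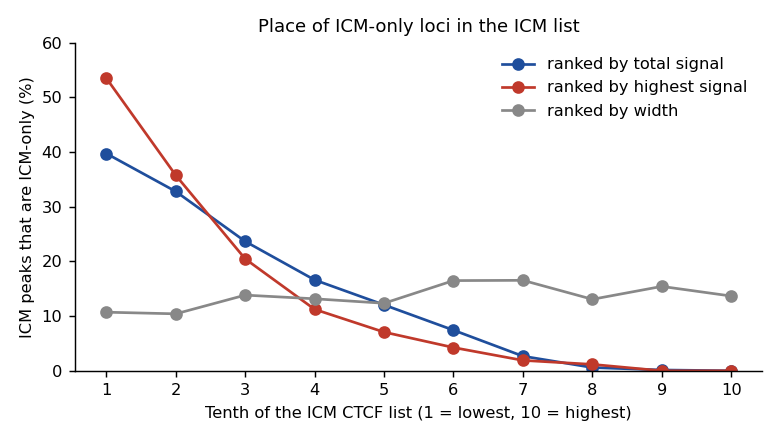
Percent of ICM CTCF peaks that were ICM-only (vertical axis) in 10 equal bins of the ICM list, ranked from lowest to highest by total signal (blue), highest signal (red) or width (grey). The share falls from 39.7% to 0 by total signal and from 53.5% to 0 by highest signal, and stays between 10.4% and 16.5% by width.

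ICM-only peaks were about as wide as the ICM peaks of loci in all 3 lists, but flatter. Their median width was 2055 bp (quartiles 1608 and 2594, range 558 to 6233), next to 2036 bp for the ICM peaks of loci in all 3 lists, 2149 bp for those of the control and ICM lists and 1693.5 bp for those of the ICM and senescent lists. Mean coverage, total signal divided by width, had a median of 11.9 against 21.1. The ratio of the highest signal to the mean coverage, which is large for a sharp peak, had a median of 3.22 (quartiles 2.71 and 3.87, range 1.57 to 8.07) compared with 3.98 (3.26 and 4.83) for loci in all 3 lists. Promoter loci were the flatter ones, with a median ratio of 3.11 and a highest signal at percentile 11.8, whereas loci away from promoters had 3.37 and 16.8. Width hardly differed, at 2064.5 and 2047 bp. Flatness was not a mark of ICM-only loci alone, as the loci of the control and ICM lists had a median ratio of 3.15.

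**Figure D3:**
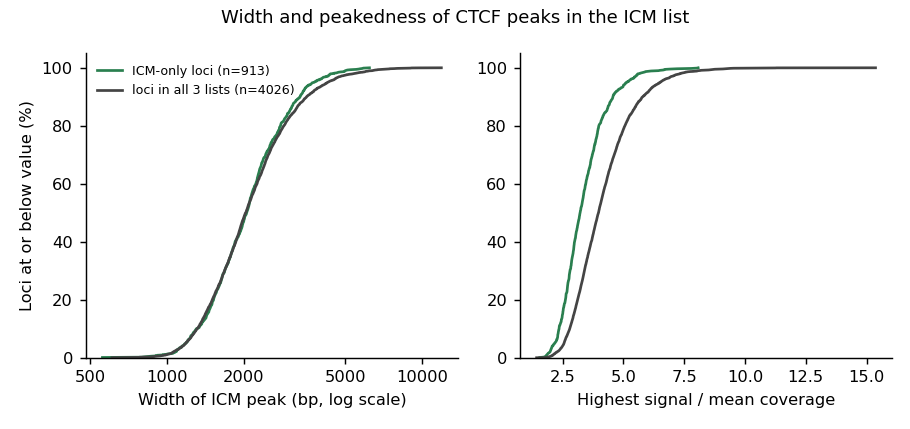
Cumulative percent of loci (vertical axis) by width of the ICM peak in bp on a log scale (left) and by the ratio of highest signal to mean coverage (right), for ICM-only loci (green) and loci in all 3 CTCF lists (black). The width curves nearly coincide, with medians of 2055 and 2036 bp, and the ratio curve of ICM-only loci lies to the left, with medians of 3.22 and 3.98.

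The ICM-only loci of highest total signal were mostly broad rather than tall. The highest was at CCN1, a matricellular protein of the YAP response (chr1:85580590-85585260), with a total of 71192 (percentile 88.4) but a highest signal of 49 (percentile 24.97). Its peak spanned 4671 bp and the nearest control CTCF peak was 1536 bp away. TRIB2, a pseudokinase, had the widest locus, 6233 bp, with a total of 45004 and a highest signal of 32. IER3, an immediate early gene, had a total of 44604 over 5523 bp, with the summit 124 bp into the gene. The rest of the 10 loci of highest total signal lay near or inside LOC124900844, RPL23AP87, DAPK3, ATP8B4, IRF1, SLC1A5 and MACF1, with totals from 42546 to 51333. The locus inside ATP8B4 was not broad, at 2202 bp, and had a mean coverage of 19.5. All 10 had an SMC1 peak in the control and ICM lists, and all but the one near RPL23AP87 in the senescent list as well. Another of the 3 widest loci, 5851 bp at chr6:36681637-36687487, lay in the body of CDKN1A, the CDK inhibitor induced by p53. Its summit was 10616 bp from the outermost coding 5′ end, its highest signal was the lowest of all members, 13, and senescent and control CTCF peaks lay only 325 and 409 bp away.

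The tallest loci were of another kind. Near MRTFA, an actin-regulated cofactor of SRF, the highest signal was 104 over 1370 bp (chr22:40651451-40652820), and SMC1 peaks of high total signal overlapped it in all 3 lists (percentiles 92.6, 96.1 and 83.3 of the control, ICM and senescent lists). LOC124907874 and the pseudogene LSP1P1 followed at 102 and 97, in peaks of only 558 and 794 bp, the narrowest of all ICM-only loci, and both had no SMC1 peak in any list. ZC3H7A reached 96, and the locus inside USP48, a deubiquitinase, 95. The sharpest loci by ratio, at DEXI (8.07), near RPL23AP80 (8.02) and at NOXA1 (7.80), had no SMC1 peak in any list. The 3 flattest, at TRIM24 (1.57), at ACO1 (1.70) and inside RBPJ (1.78), had SMC1 peaks in the control and ICM lists. Only these extremes were looked at, and SMC1 was not counted by ratio. Over all ICM-only loci, 19.8% had no SMC1 peak in any list and 51.9% had one in all 3. The 3 lowest totals, 20168 to 20186, lay near SNORA31, inside RBKS and inside DIAPH1.

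Most ICM-only loci were far from the peaks of the other lists. The median gap was 94336 bp to a control CTCF peak, 47493 bp to a senescent one and 44873 bp to the nearer (66 to 6832270), and 299 (32.7%) were over 100 kb from both. Yet 30 lay within 1 kb and 216 (23.7%) within 10 kb of such a peak. Just inside the rule were a locus near ADGRE1, 66 bp from a senescent peak, one at UROD, 78 bp from a control peak, and one near TAF1C, 161 bp from a senescent peak. Just outside it were ICM peaks near PFDN1, PEBP1 and SNORA72, which overlapped a peak of another list by 61, 344 and 373 bp.

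Among gene lists, those of splicing factors, AP-1 and immediate early genes and chaperones held the largest shares of genes with an ICM-only summit at the 5′ end. Splicing factors had 11 of 71 (15.5%), AP-1 and immediate early genes 6 of 46 (13.0%) and chaperones 10 of 80 (12.5%), beside the 2.89% of all coding genes. These are counts without a test. With CTCF lists of equal length by total signal, 3 splicing factors, 4 AP-1 and immediate early genes and 1 chaperone were left while 1.22% of all coding genes were called, and all of these were among those named here. By highest signal the counts were 0, 1 and 0 while 0.764% were called, and the 1 gene, ATF7, was not among the 6, so none of the genes counted with the complete lists was left. CTCF peaks of any class were also frequent there in the ICM list: 27 of the 71 splicing factors had one at the 5′ end, compared with 14 in the control and 15 in the senescent list. For chaperones the counts were 16, 4 and 5, and for AP-1 and immediate early genes 16, 9 and 7. Over all coding genes they were 2483, 1724 and 1877.

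**Figure D4:**
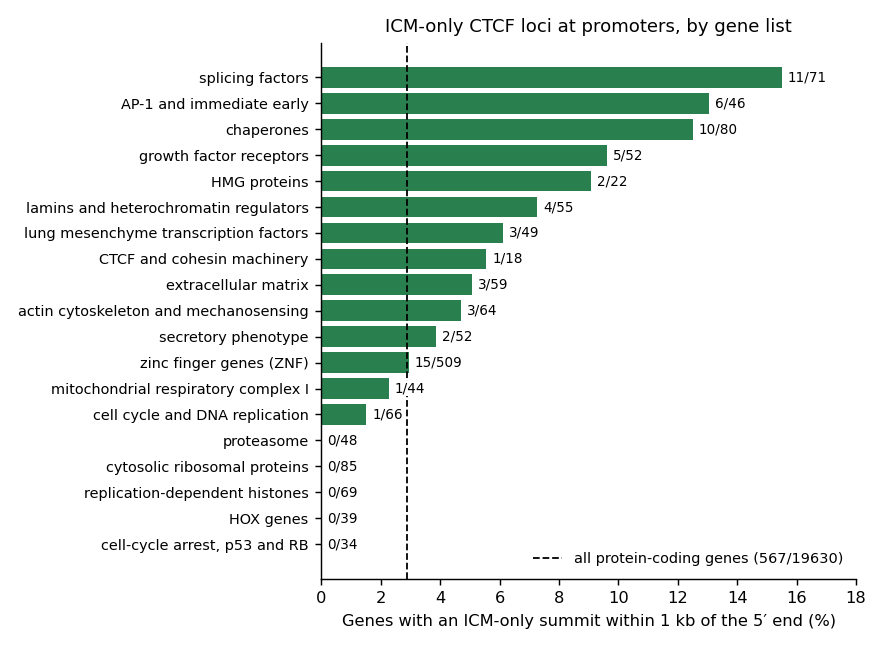
Percent of genes of each list with an ICM-only CTCF summit within 1 kb of the 5′ end (horizontal axis), with the count of genes beside each bar and the share of all protein-coding genes, 2.89%, as a dashed line. Splicing factors, AP-1 and immediate early genes and chaperones reach 15.5%, 13.0% and 12.5%, and 5 lists are at 0.

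The splicing factors were mostly hnRNP proteins, which coat nascent RNA: HNRNPA2B1, HNRNPD, HNRNPH3, HNRNPK, HNRNPU and HNRNPUL2. With them were the snRNP proteins SNRPA and SNRPD3, the SR protein SRSF2, the branch site factor SF3B6 and the spliceosome protein PRPF38A. PTBP1 was not in the list. Totals were highest at PRPF38A (28365, percentile 38.2) and SRSF2 (28279, percentile 37.9) and lowest at SNRPA (20315, percentile 1.03). All 11 had an SMC1 peak in the control and ICM lists, and 9 in the senescent list, HNRNPK and HNRNPH3 being without one. Of all ICM-only promoter loci, 83.6%, 78.8% and 66.6% had one in the control, ICM and senescent lists. The chaperones spanned the cytosolic HSP90AB1, HSPA8 and HSPH1, the chaperonin subunits CCT2 and CCT7, the mitochondrial HSPD1 and HSPE1, the small heat shock protein HSPB6 and the co-chaperones DNAJC7 and DNAJC27. CCT7 had the highest total among them (30517, percentile 44.7) and HSPD1 with HSPE1 the lowest (20236, percentile 0.394). Every one had an SMC1 peak in the control and ICM lists, and HSP90AB1 lacked one in the senescent list.

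Among the AP-1 and immediate early genes, 3 lay above the middle of the ICM list by total signal. IER3 and FOSL2 (40016) stood at percentiles 70.7 and 64.6. DUSP6, the phosphatase that switches off ERK, had a total of 34357 (percentile 54.7) over 4988 bp. ATF4, the transcription factor of the integrated stress response, had 26359 (percentile 30.6). ATF5 shared its locus with IL4I1 and NUP62, and CITED2 had a summit 977 bp upstream. All 6 had SMC1 peaks in all 3 lists. Receptors of growth factors came next, with 5 of 52: PDGFRB of PDGF (26924), FZD1 of Wnt (26421), ACVR1 of BMP and activin (22069), ROR1 (22042) and NRP2 (20818).

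Lists tied to senescence and to the drug lay on both sides of the 2.89% of all coding genes, with few genes each and without a test. Of 22 HMG genes (9.09%), HMGB2 and HMGN4 had an ICM-only summit, HMGB2 with a total of 20628 (percentile 2.78) in a 1588 bp peak 197 bp upstream of the start, and both had SMC1 peaks in all 3 lists. Among lamins and heterochromatin regulators it was 4 of 55 (7.27%): EMD, which encodes emerin, BANF1, which bridges chromatin and the envelope, CBX3, an HP1 protein, and JARID2, a Polycomb partner. Of 18 genes of the CTCF and cohesin machinery, SMC3 alone had one (5.56%), with a total of 21796 (percentile 9.63), 223 bp upstream. All these HMG, lamin, heterochromatin and cohesin loci stood at percentile 28.3 (HMGN4) or lower by total signal. Counts with CTCF lists of equal length were run only for splicing factors, chaperones and AP-1 and immediate early genes. Such a cut by total signal, from 6728 to 4673 ICM peaks, removes the lowest first. All of these HMG, lamin, heterochromatin and cohesin loci fall among the peaks removed, so none of them would be left as ICM-only. The secretory phenotype had 2 of 52 (3.85%), IGFBP4 (41363, percentile 66.4), without SMC1 in any list, and the membrane protease MMP14 (26849), with SMC1 in the control and senescent lists. Genes of cell-cycle arrest, p53 and RB had 0 of 34, as the CDKN1A locus lay within the gene, and cell cycle and replication genes had 1 of 66 (1.52%), CDC45.

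The fibroblast lists held a few each. Extracellular matrix genes had 3 of 59, CCN1, the collagen chain COL1A2 (30955, percentile 46.2) and the lysyl hydroxylase PLOD3 (23494). From the actin cytoskeleton list, TAGLN2 (26840) and PXN (20274) had one. Transcription factors of lung mesenchyme had 3 of 49, FOXF1 (26984), SOX9 (23295) and GLI2 (20493). At FOXF1 and SOX9 the highest signal was only 16 and 21. Zinc finger genes (ZNF) had 15 of 509 (2.95%), next to the 2.89% of all coding genes, and complex I had 1 of 44, NDUFB6. The counts were 0 for 85 ribosomal protein genes, 69 histone genes, 48 proteasome genes and 39 HOX genes, although 18 of the ribosomal and 10 of the proteasome genes had some ICM CTCF peak.

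SMC1 peaks were not used to choose the loci, and most ICM-only loci had one in each condition. The share was 647 of 913 (70.9%, 67.8 to 73.8) in the control list, against 55.7% of all CTCF loci. It was 651 (71.3%, 68.2 to 74.2) in the ICM list, against 60.3%, and 538 (58.9%, 55.7 to 62.1) in the senescent list, against 52.1%. ICM-only CTCF loci were thus covered by SMC1 in control cells about as often as in ICM-treated ones, with a difference of 0.44 points (-2.08 to 2.94) for ICM minus control, in which 66 loci had SMC1 in the ICM list but not the control list and 62 the reverse. The senescent list was lower than the control list, with a difference of -11.9 points (-14.2 to -9.26), in which 39 loci had SMC1 in the senescent list but not the control list and 148 the reverse. Loci in all 3 CTCF lists had shares of 77.2%, 77.8% and 71.4%, and loci of the senescent list only 21.5%, 31.4% and 24.1%. Those senescent-only loci, part of all CTCF loci, were narrower, with a median width of 920 bp against 2055 bp for ICM-only loci. Among all loci with an ICM CTCF peak the shares were 69.6%, 72.7% and 63.9%. Beside these, ICM-only loci were near in the control and ICM lists and lower in the senescent list.

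The SMC1 lists differed in length, with 14883, 17809 and 12927 peaks. When each was cut to 12927 peaks, ICM minus control turned to -2.74 points by total signal and -8.43 by highest signal, and senescent minus control was -7.78 and -5.81. The sign of the ICM minus control difference thus depended on how the lists were cut, and the senescent share stayed below the control share in both. With CTCF lists of equal length, in contrast, ICM minus control was 6.61 by total and 7.17 points by highest signal. As a share of the SMC1 lists, 691 (4.64%) of the control, 713 (4.00%) of the ICM and 563 (4.36%) of the senescent peaks overlapped an ICM-only locus.

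Promoter loci carried SMC1 more often. In the control, ICM and senescent lists it was on 83.6% (80.1 to 86.7), 78.8% (74.95 to 82.3) and 66.6% (62.3 to 70.7) of the 500 promoter loci, and on 55.4% (50.5 to 60.3), 62.2% (57.4 to 66.9) and 49.6% (44.7 to 54.6) of the 413 others. At promoters the ICM share was thus lower than the control share, by 4.8 points, with 20 loci in the ICM list alone of that pair and 44 in the control list, whereas away from promoters it was higher by 6.78 points, with 46 and 18. The same signs stood at loci in all 3 CTCF lists, -4.17 points at 1464 promoter loci and 3.32 at 2562 others, so the split was not shown to be particular to ICM-only loci. Their promoter shares, 85.2%, 81.1% and 74.3%, were near those of ICM-only promoters in the control and ICM lists. Away from promoters the loci in all 3 lists stood higher, at 72.6%, 75.9% and 69.8%. The split by promoter was not run with SMC1 lists of equal length.

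**Figure D5:**
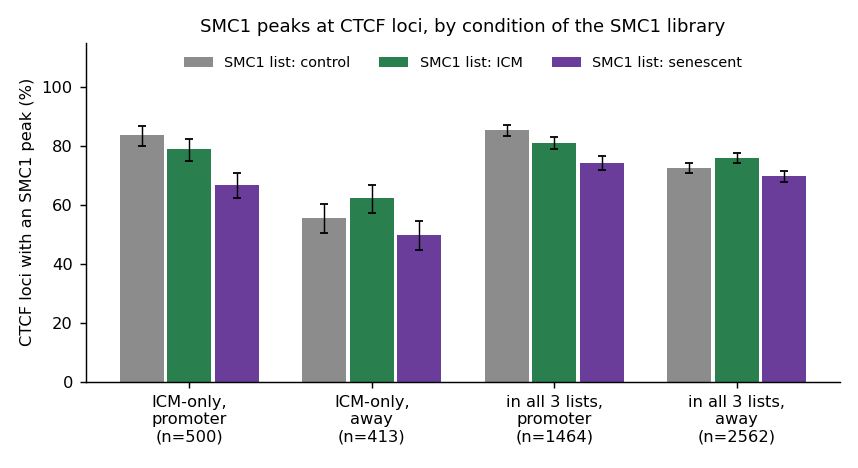
Percent of CTCF loci overlapped by an SMC1 peak (vertical axis) in the control (grey), ICM (green) and senescent (purple) SMC1 lists, for ICM-only loci and loci in all 3 CTCF lists, at promoters and away from them, with bars for exact 95% intervals over loci. ICM-only promoter loci stand at 83.6%, 78.8% and 66.6% and the others at 55.4%, 62.2% and 49.6%.

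By combination, 474 ICM-only loci (51.9%) had SMC1 in all 3 lists, 111 (12.2%) in the control and ICM lists, 46 (5.04%) in the ICM list only, 37 (4.05%) in the control list only and 19 (2.08%) in the senescent list only. No list had one at 181 (19.8%), 54 of them at promoters and 127 away. Loci without an SMC1 peak seldom had a listed one close by: of the 262 without one in the ICM list, 8 had one within 1 kb. SMC1 signal just under the threshold of a list would not be seen in this count. Where CTCF and SMC1 were both in the ICM lists alone, the loci of highest total signal were near the pseudogene RPL32P28 (36813), at PABPC4, a poly(A)-binding protein (35518), at OSGEPL1 (35432), at CALB2, which encodes calretinin (35219), and near LOC105374988 (34858). With SMC1 in the control list only they were ZC3H7A (36669), ATP1B3 (32155) and DTD1 (31862), and with SMC1 in the senescent list only those inside DGKZ (34941), at CDR2L (32115) and inside PLCB4 (31291).

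The rank of SMC1 can be given only for loci that held an SMC1 peak, 647, 651 and 538 in the control, ICM and senescent lists. The SMC1 peaks on them had a median percentile by total signal of 77.0, 76.3 and 69.6 in the same order, compared with 71.2, 75.9 and 73.0 on loci in all 3 CTCF lists. By highest signal the medians were 63.5, 58.9 and 49.7, lower than the 66.4, 67.9 and 71.5 on loci in all 3 lists. The summits of CTCF and SMC1 were a median of 96, 96 and 106 bp apart at ICM-only loci and 56, 60 and 68 bp at loci in all 3 lists. Within 100 bp lay 336 of 651 (51.6%) in the ICM list, compared with 2087 of 3131 (66.7%) for loci in all 3 lists.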

How the data were processed

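CUT&Tag peak lists of CTCF and SMC1 from control, ICM-treated and senescent IMR90 fibroblasts (6 libraries, 1 per group) were used as deposited. Per the submitters' processing notes and the study's methods, the authors mapped paired-end reads to hg38 with Bowtie2 2.3.4.1 (Picard 2.20.7 and deepTools are also named), calibrated them with reads from carried-over bacterial DNA, and called peaks per library with SEACR 1.3, keeping the top 1% for these antibodies. CTCF peaks were to be kept only with a CTCF motif. The CTCF lists used here held 4673 control, 6728 ICM and 8577 senescent peaks, each more than the study reports after that filter. Whether every peak used here passed it is therefore not known. The deposited signal columns give, per peak, the coverage summed over it and its highest value. Read depth is unknown, and precision beyond counting could not be had from 1 library. The 1 peak per list on mitochondrial DNA was left out.

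Groups were taken from sample titles. CTCF peaks were merged into loci at 1 bp of overlap, and SMC1 was counted by the same overlap. Percentiles are ranks within the ICM list. Gene 5′ ends were the outermost ends of RefSeq genes (GRCh38.p14), with strand from the RefSeq promoter table or GENCODE. They were available for 47057 of 59098 genes and 19630 of 19974 coding ones. Exact binomial 95% intervals cover counting only. Intervals of paired differences condition on the loci that differ between both lists. Python 3.11.15, pandas 2.3.3 and scipy 1.17.1 were used, and the overlap functions were tested on simulated intervals against bedtools 2.31.1.

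The loci and gene lists were chosen with earlier results of these data known. Loci were named by rule: extremes of total signal, highest signal, ratio and width, gene list members, loci with SMC1 in 1 list, and loci nearest the overlap threshold. CDKN1A was reached as one of the widest. Promoter windows that started inside a gene or covered another coding gene were not printed, a choice made after the values were seen. Alternatives to the merging, list lengths, promoter distance and SMC1 overlap were run. No genome of the files' build was used, so sequences away from promoters were not analysed here. A gene of the lists is not reported here.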

Additional observations from a re-analysis of the deposited data

Results flagged for a closer look

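The SMC1 share of ICM-only loci moved in opposite directions between the ICM and control SMC1 lists at promoters and away from them. It fell by 4.8 points at the 500 promoter loci (95% interval over loci -7.62 to -1.52) and was 6.78 points higher at the 413 others (2.86 to 10.04). With 1 library per condition this difference was not tested. The SMC1 lists held 17809 ICM and 14883 control peaks, and the split by promoter was not run with lists of equal length. Loci in all 3 CTCF lists showed the same signs, with -4.17 and 3.32 points.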

How the results depend on the processing

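Direction of the difference in SMC1 share held for senescent minus control under every alternative run, and for ICM minus control it did not. Of 86 alternatives for all results, 30 left a share or median within its interval, or a count close to its value, and 56 did not. Merging over gaps of 1 kb gave 881 ICM-only loci, all among the 913, and changed no value beyond its interval.

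Linking loci by 100 bp summit windows gave 1609 loci that include all 913, with median percentiles of 29.4 by total and 18.02 by highest signal, a senescent SMC1 share of 64.1% and senescent minus control of -8.95 points. With CTCF lists of equal length by total signal there were 514 loci, a promoter share of 44.2%, a control SMC1 share of 65.0%, ICM minus control of 6.61 and senescent minus control of -6.81 points, a median width of 2155 bp, a ratio of 3.36 and percentiles of 42.5 and 24.97. By highest signal there were 460 loci, a promoter share of 32.0%, SMC1 shares of 52.2%, 59.3% and 47.2% (control, ICM, senescent), differences of 7.17 and -5 points, a width of 1574.5 bp, a ratio of 3.67 and percentiles of 29.4 and 42.4. Among ICM peaks above the median total signal of their list there were 73 loci, a promoter share of 47.9%, SMC1 shares of 75.3%, 83.6% and 65.8%, ICM minus control of 8.22 points, a width of 3088 bp, a ratio of 3.69 and percentiles of 57.1 and 19.3. The promoter share was 49.7% within 500 bp, 60.5% within 2 kb, 51.2% for coding genes only and, chosen after seeing the data, 59.7% with inner starts.

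SMC1 by 100 bp summit windows was on 36.0%, 36.5% and 28.7% of loci, with senescent minus control of -7.34 points. With SMC1 lists of equal length the control and ICM shares were 66.7% and 64.0% by total and 64.7% and 56.3% by highest signal, with ICM minus control of -2.74 and -8.43 and senescent minus control of -7.78 and -5.81 points. The gene list counts under equal-length CTCF lists, also chosen after seeing the data, stand beside those lists. Equal lengths are set by peak number and not by depth, which is unknown, and the cause of these shifts was not tested. No paired analysis was possible because each group holds 1 library.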
